A study of Mus musculus with 2 samples.

Results

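The EGF-like ligands and the ERBB receptors they bind were examined in cultured mouse ovaries by taking every probe whose RefSeq accession belongs to 1 of 10 genes: the ligands Areg, Ereg, Btc, Hbegf, Tgfa and Nrg1, and the receptors Egfr, Erbb2, Erbb3 and Erbb4. All 10 genes were found, with 12 probes and 39 spots, among the 20658 genes that could be named on the arrays. Each culture held a symmetrical piece of an ovary from a mouse aged 2 weeks and lasted 3 days. One treatment used agonists of the tachykinin receptors (TKRs), namely [Sar9, Met(O2)11]-SP for TACR1, GR-64349 for TACR2 and a succinylated substance P fragment analogue for TACR3, and the other used antagonists, namely a non-peptide compound for TACR1, GR-94800 for TACR2 and SB218795 for TACR3, each at 1 μM. RNA of each treatment was hybridised to 1 single-colour array. Both arrays thus come from immature ovaries under the same culture conditions and differ in the ligands added. Neither an untreated array nor a replicate was analysed here, so no statistical test was made, and the study's text gives neither the strain nor the number of ovaries behind each RNA.

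EGF-like ligands are made as membrane proteins and are released by proteases of the ADAM family. Areg (amphiregulin) and Tgfa (transforming growth factor α) bind EGFR, Ereg (epiregulin), Btc (betacellulin) and Hbegf (heparin-binding EGF-like growth factor) bind EGFR and ERBB4, and Nrg1 (neuregulin 1) binds ERBB3 and ERBB4. The bound receptors pair with each other, often with ERBB2, which has no ligand of its own, and signal through RAS and the MAP kinases ERK1 and ERK2. In the mature ovary, luteinising hormone induces Areg, Ereg and Btc in granulosa cells, and the released ligands make cumulus cells express Ptgs2 (COX-2), Has2 and Tnfaip6 and the oocyte resume meiosis.

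A signal below is the spot brightness in the scanner software's units after its background correction. The software marks a spot as well above background from the brightness and noise around it, and such signals began at 18.1 on the agonist and at 19.9 on the antagonist array. A log2 ratio here is the log2 signal with the agonists minus that with the antagonists, after each array was reduced by its own 75th percentile, so that 1 stands for a 2-fold difference. Such signals were found on both arrays for 15258 genes. Their median log2 ratio was -0.10 and lay between -0.15 and 0.18 over 8 ways of scaling the arrays. Log2 ratios of the members measured on both arrays are therefore also given relative to this median. The 7 granulosa cell and 10 oocyte marker genes were all well above background on both arrays, as were 15258 of the 20658 named genes. So were 5 of 5 macrophage, 7 of 7 surface epithelium and 5 of 5 Schwann cell genes. Detection alone thus does not single out a cell type.

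Ereg showed the widest gap between the arrays of the 10 genes, and 3 of its fellow members, Areg, Nrg1 and Egfr, had the next largest positive ratios. No member well above background on both arrays was at least 2-fold higher or lower with the agonists (0 and 0 of 6), where 4.01% of all genes so measured reached this size upwards and 0.577% downwards. Ereg and Btc passed background on the agonist array only, as did 4.09% of all named genes. Erbb3 and Erbb4 were well above background on neither array. The members are described below by role.

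**Figure D1:**
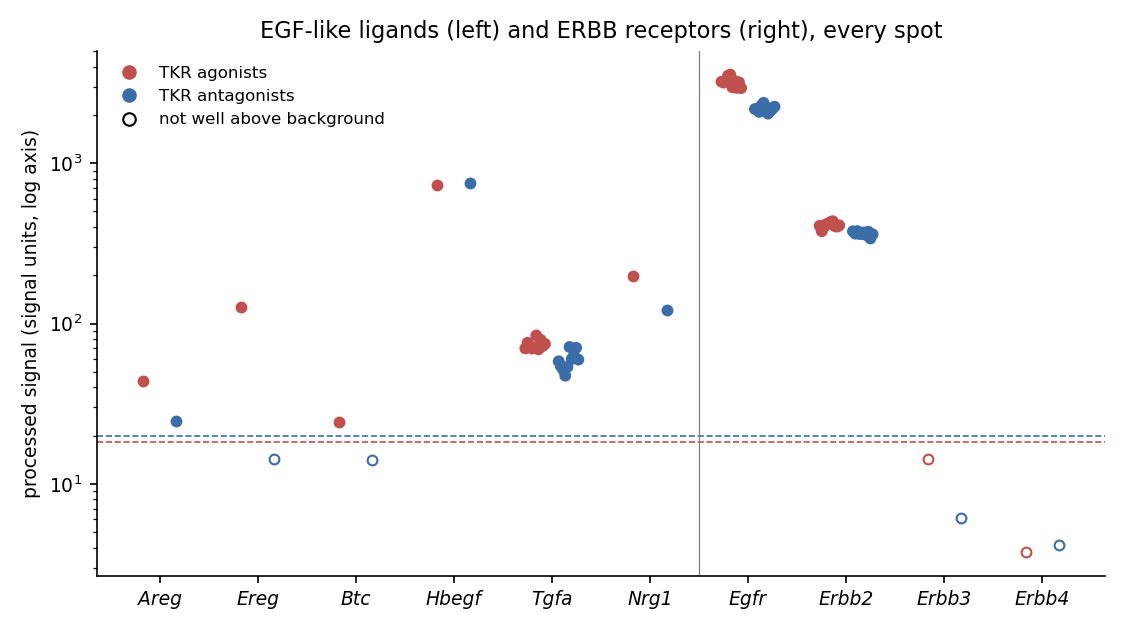
Processed signal of each spot (signal units, log axis) for the probe that represents each gene, with TKR agonists in red and antagonists in blue; open circles are spots not well above background, and the dashed lines are the lowest signals well above background on each array (18.1 and 19.9). Ereg is filled on the agonist array and open on the antagonist array, whereas Erbb3 and Erbb4 are open on both; heights of different genes are not comparable, because probes bind with different strength.

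For Ereg the array holds 1 probe at 1 spot, designed on the transcript NM_007950. On the agonist array this spot read 127 ± 13.3 (the software's own error of the spot), against 14.2 ± 4.62 on the antagonist array. The agonist spot was brighter than all 308 negative control spots of its array, whereas the antagonist spot was not well above background, although the software marked it as positive and significant, its weaker grade of detection. Since the dim value is not a reliable measurement, the lowest signal well above background on the antagonist array took its place, which gives a lower bound of the difference. On this basis the agonist signal of Ereg was at least 5.38-fold above that of the antagonists. Among the 845 genes well above background on the agonist array only, 14.4% had a lower bound of at least 2-fold, and 16 genes, Ereg included, had one at least as high as that of Ereg. The bound stayed between 5.18-fold and 6.52-fold under the other scalings. It was 1.97-fold with the normexp background correction, which adds 50 units to every signal. The error is that of a single spot and holds no spread between animals.

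Areg, whose transcript NM_009704 was also represented by 1 spot, was well above background on both arrays. It read 44.1 ± 5.97 on the agonist array and 24.7 ± 4.97 on the other (software errors). The antagonist signal was thus within 1 error of the lowest signal well above background on that array (19.9). The log2 ratio was 0.60, or 1.51-fold, with an error of 0.35 from the spots, and 9.04% of all genes had a ratio at least as large. Relative to the median of all genes it was 0.69. The ratio of Areg, which is less than 2 errors of the spots from 0, ranged from 0.02 with the normexp correction to 0.87 with scaling on spike-in controls. The 3 genes whose pair of scaled signals lay nearest to that of Areg over the 2 arrays were Il2rb, Ccdc73 and Syne1, with log2 ratios of 0.63, 0.57 and 0.52. This likeness rests on 2 values per gene.

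Btc (NM_007568), also at 1 spot, lay near the limit of detection, with a signal of 24.5 ± 4.45 after agonist culture and 14.0 ± 4.26 after antagonist culture, where it was not well above background. Its lower bound was 1.04-fold, so the signals leave the size of a difference unmeasured. With loess scaling and with the normexp correction the bound was below 1 and no fold can be given.

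Ereg, Areg and Btc follow each other in this order on mouse chromosome 5, with Epgn (epigen), a further EGFR ligand, just before them. The neighbours, chosen after the values of the ligands were seen, did not share a common ratio. On the side of Ereg, Epgn had a log2 ratio of 0.17, with signals of 62.5 and 46.9, and Mthfd2l, an enzyme of folate metabolism, had -0.22. On the side of Btc, Parm1 had 0.49 and Rchy1 0.12. Cxcl2, a chemokine gene beyond Mthfd2l, was not well above background on either array, and its neighbour Cxcl1 had 0.33.

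**Figure D2:**
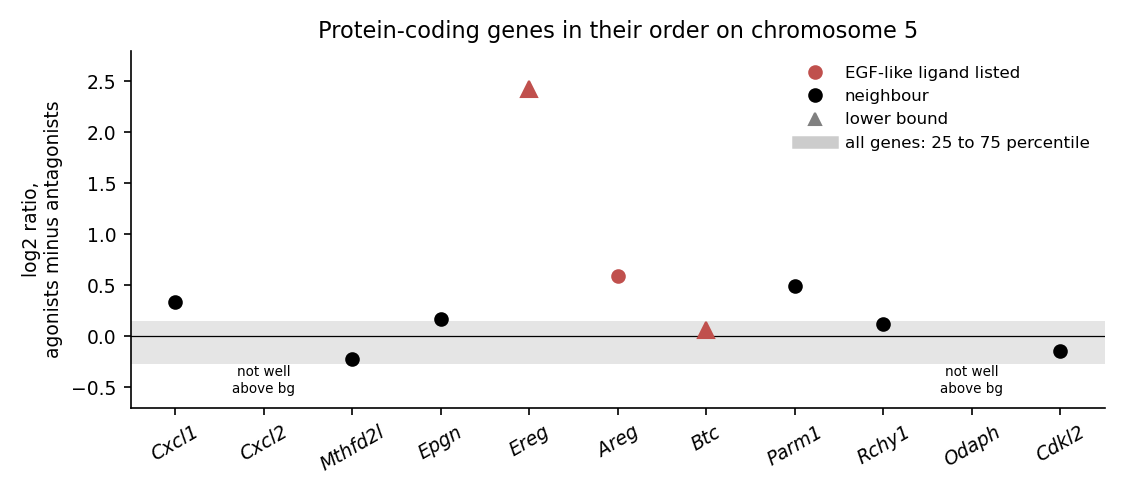
Log2 ratio (agonists minus antagonists) of protein-coding genes, arranged by their order on chromosome 5 and not to scale; red symbols are Ereg, Areg and Btc, triangles are lower bounds, and the grey band holds the 25th to 75th percentile of all genes. Ereg lies above every neighbour shown, Epgn and Mthfd2l lie before it at 0.17 and -0.22, Areg follows it at 0.60, and Parm1, next to Btc, lies at 0.49.

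Promoters were searched because Areg and Ereg are known targets of cyclic AMP and its transcription factor CREB in granulosa cells. RefSeq promoters (GRCm38.p6) of Areg, Btc, Tgfa, Egfr, Erbb2 and Erbb4 were used. No promoter of Ereg, Nrg1 or Erbb3 was available, and that of Hbegf was left out. The promoters of Areg and Btc are printed as the 250 bases before the transcription start, in the direction of the gene. Capitals mark the cyclic AMP response element (CRE, TGACGTCA), its half-site (TGACG), the TATA box (TATAAA) and the GC box (GGGCGG), each searched on both strands. The Areg sequence lies on the plus strand at chr5:91139349-91139598 and the Btc sequence on the minus strand at chr5:91402995-91403244.
Areg: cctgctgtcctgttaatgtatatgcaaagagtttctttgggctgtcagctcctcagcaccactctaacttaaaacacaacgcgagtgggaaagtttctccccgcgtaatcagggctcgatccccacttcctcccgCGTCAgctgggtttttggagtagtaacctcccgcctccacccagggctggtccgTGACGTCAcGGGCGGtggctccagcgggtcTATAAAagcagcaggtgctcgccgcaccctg
Btc: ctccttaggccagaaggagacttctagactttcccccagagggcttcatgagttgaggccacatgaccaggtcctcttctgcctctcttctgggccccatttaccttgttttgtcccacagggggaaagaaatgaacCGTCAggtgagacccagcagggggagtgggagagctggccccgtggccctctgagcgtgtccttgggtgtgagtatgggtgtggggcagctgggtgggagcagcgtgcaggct

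The Areg window held a full CRE from 61 to 54 bases before the start, a GC box 1 base after it, a TATA box from 31 to 26 bases before the start and a further half-site from 115 to 111. A full CRE was found in 1.55% of the 32851 RefSeq windows of the same length, a TATA box in 12.4%, a GC box in 32.7% and a half-site, which the full CRE also contains, in 17.8%. The Btc window held 1 half-site and no full CRE, TATA box or GC box. Among the other windows, that of Erbb2 held 1 half-site, those of Tgfa and Egfr held GC boxes alone, and that of Erbb4 held none of these motifs. The AP-1 motif (TGANTCA, in 6.75% of windows) and the STAT motif (TTCNNNGAA, in 7.02%) were found in none of the 6 windows. These matches describe the letters of the windows and are not evidence of binding.

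Of the remaining ligands, Nrg1 was higher on the agonist array and Hbegf and Tgfa lay close to the bulk of all genes. Nrg1, measured by 1 spot for the transcript NM_178591, had signals of 197 ± 20.1 with the agonists and 122 ± 13.0 with the antagonists (software errors). Its log2 ratio was 0.44 with an error of 0.21 from the spots, or 1.36-fold, and 12.2% of all genes had a ratio at least as large. It was 0.54 relative to the median of all genes. The ratio ranged from 0.21 with the normexp correction to 0.72 with scaling on spike-in controls. Hbegf, 1 spot for NM_010415, had signals of 734 ± 73.5 and 750 ± 75.1, which overlap within the errors of the spots. After scaling its log2 ratio was -0.27 ± 0.20, or -0.18 relative to the median of all genes, and 75.5% of all genes had a ratio at least as large. With scaling on spike-in controls the ratio of Hbegf was 0.0037, so its sign follows the scaling.

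Tgfa was printed at 10 spots, which were all well above background on both arrays. On the agonist array its signals lay between 69.0 and 84.2 with a median of 72.4. Those of the antagonist array lay between 47.3 and 71.5 with a median of 58.9. The agonist spots were the brighter ones on average, but the ranges overlapped. The log2 ratio of Tgfa was 0.09 ± 0.16 (SD over 10 spots), with single spots between -0.21 and 0.32, and 0.19 relative to the median of all genes. The ratio was -0.11 with the normexp correction. The 4 ligands measured on both arrays had a median log2 ratio of 0.27, compared with -0.10 over all genes, and 3 of the 4 lay above the median of all genes.

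Among the receptors, Egfr and Erbb2 each had a probe at 10 spots, with a smaller SD over spots than Tgfa. The software's error of the log2 ratio was 0.204 and 0.205 for these probes, and 0.204 for Hbegf at 1 spot. This is an error per spot that was not reduced for averaging 10 spots, so it does not compare their precision. The Egfr probe for NM_207655 gave signals between 2943 and 3569 with a median of 3210 on the agonist array. On the antagonist array they lay between 2039 and 2378 with a median of 2181. Every agonist spot was brighter than every antagonist spot, also after scaling, when a gap of 0.07 in log2 signal separated them. The log2 ratio was 0.31 ± 0.10 (SD over 10 spots), or 1.24-fold, and 16.9% of all genes had a ratio at least as large. A pair of other Egfr probes, each at 1 spot and designed on the transcript NM_007912, gave lower ratios. Their signals were 287 and 286 with the agonists and 254 and 241 with the antagonists, and their log2 ratios were -0.07 and 0.00038 with an error of 0.21 each from the spots. The difference seen with the probe for NM_207655 was thus not seen with the probes of the other transcript. Ranges of 1 software error around the 3 ratios overlapped, however, so a difference between the transcripts was not shown. The mean over the 3 probes was 0.08. Over all alternatives the ratio of Egfr ranged from that mean to 0.58 with scaling on spike-in controls. Relative to the median of all genes, the ratios of the 3 probes were 0.40, 0.03 and 0.10.

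Erbb2, the receptor without a ligand, had signals between 377 and 435 with a median of 408 after agonist culture. After antagonist culture they lay between 339 and 377 with a median of 363, so the ranges met at one end. Its log2 ratio was -0.07 ± 0.08 (SD over 10 spots), with single spots between -0.19 and 0.04. Relative to the median of all genes the ratio of Erbb2 was 0.02, and 46.3% of all genes had a ratio at least as large, so that Erbb2 moved with the bulk of the array. Its sign followed the scaling and was positive, up to 0.20, without scaling and with 4 of the other scalings. The median over Egfr and Erbb2 was 0.12.

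**Figure D3:**
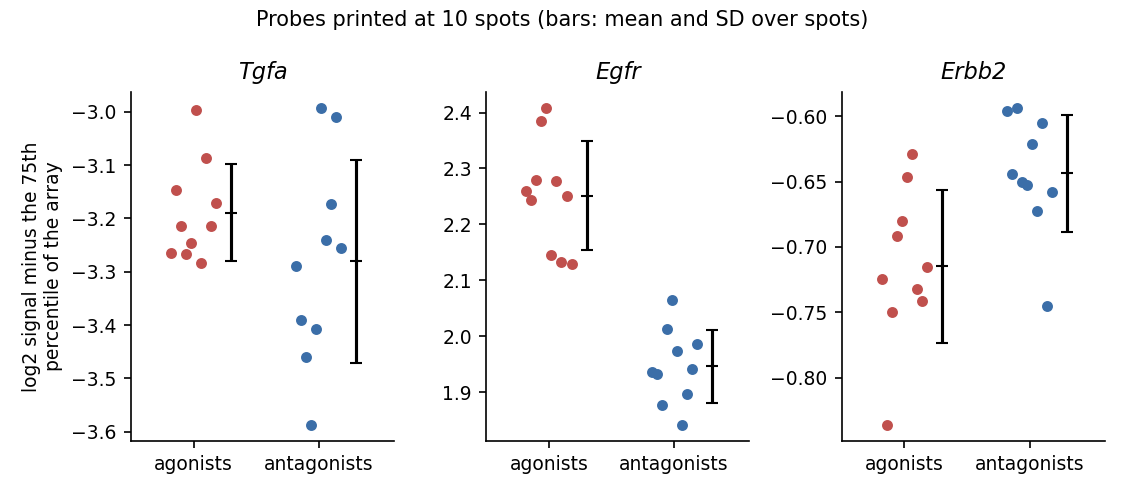
Scaled log2 signal (log2 signal minus the 75th percentile of the array) of the 10 spots of the Tgfa, Egfr (NM_207655) and Erbb2 probes on each array, with the mean and SD over spots beside them; the vertical axes differ between panels and do not start at 0. The spots of Egfr do not overlap between the arrays, and those of Tgfa and Erbb2 do.

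Erbb3 and Erbb4, the receptors of Nrg1, were each represented by 1 spot that was well above background on neither array. Erbb3 (NM_010153) had signals of 14.3 ± 4.10 with the agonists and 6.17 ± 4.27 with the antagonists. Only 3 and 9 of the 308 negative control spots were at least as bright, and the software marked both spots as positive and significant, so Erbb3 lay near the limit of detection. Erbb4 (NM_010154) had signals of 3.77 ± 3.78 and 4.14 ± 4.15, and 251 and 232 of the 308 negative control spots were at least as bright. The Erbb4 signals are thus those of an empty spot. No fold is given for these genes, and low signals of a single probe do not show that the receptor was absent from the tissue.

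**Figure D4:**
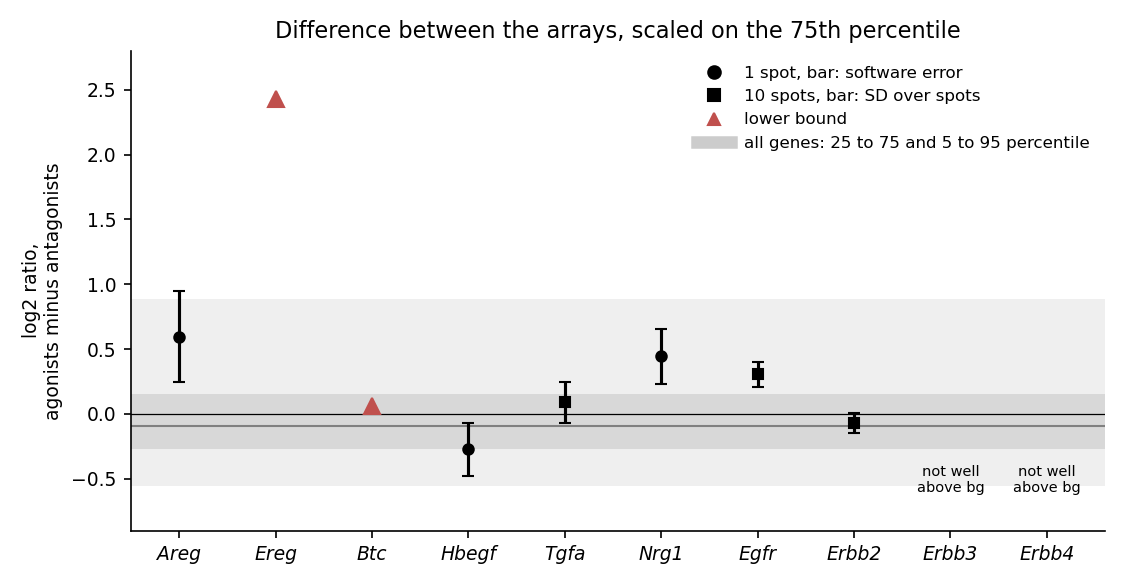
Log2 ratio (agonists minus antagonists) of each member, with circles for probes at 1 spot (bars, software error), squares for probes at 10 spots (bars, SD over spots) and triangles for lower bounds; the grey line and bands are the median, the 25th to 75th and the 5th to 95th percentile of all genes. Only the bound of Ereg lies outside the wider band, and Areg, Nrg1 and Egfr lie above the narrower one.

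Genes that act with the ligands and receptors were taken from lists and are given by their counts at 2-fold and their medians. Where genes above 0 are counted, 5750 of all 15258 genes measured on both arrays lay above 0. Of the 5 other EGF-family ligands, 4 were well above background on both arrays and none was 2-fold apart. Their log2 ratios were 0.32 for Egf, 0.17 for Epgn, -0.31 for Nrg2 and -0.17 for Nrg4. Another Nrg4 probe had 0.22, so its probes disagree. Another Nrg2 probe was well above background on the antagonist array only, with a log2 bound of -0.89. The median of this list, -0.0018, turned positive under 6 of the alternatives. Nrg3 was well above background on neither array. Of 7 genes of ligand shedding, none was 2-fold apart and the median was 0.01. Adam17, the main protease that releases Areg, Ereg and Tgfa, had -0.51 and a second probe -0.11, and Adam10, which releases Btc, had -0.06. Rhbdf1 and Rhbdf2, which carry ADAM17 to the cell surface, had 0.01 and 0.23. Timp3, an inhibitor of ADAM17, had 0.21, Adam9 had -0.26, and Adam12 had a ratio just short of 2-fold, with signals of 346 and 147 and another probe at a log2 ratio of 0.38.

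The lists downstream of the receptors differed in their medians, although none of their genes well above background on both arrays was 2-fold apart. The adaptors and kinases that carry the signal had a median log2 ratio of -0.22, with 15 of 18 genes below 0 and 5 of 18 above the median of all genes, and this median turned positive without scaling and with spike-in scaling. The highest were Mapk3 (ERK1) at 0.31 and Plcg1 (phospholipase C gamma 1) at 0.31, and the lowest were Sos1, the exchange factor of RAS, at -0.56 and Map2k1 (MEK1) at -0.53. The feedback inhibitors of the receptors and of ERK had a median of 0.18, and 9 of 13 lay above the median of all genes. Spry4 (0.65) and Dusp6, the phosphatase of ERK (0.60), were the highest, and Lrig1 and Socs5 (both -0.36) the lowest. The transcripts known to follow ERK activity had a median of 0.27 over 9 genes. Etv4 had 0.75, with 0.70 from another probe, and Dusp4 had 0.72, while Egr1 had -0.52 and Ier3 -0.24. Fosl1 was well above background on the antagonist array only, at least 1.82-fold above the agonist array. With dim probes kept, which adds Fosl1, the median of the ERK-responsive transcripts was 0.16 over 10 genes. These medians were set against -0.10 over all genes, and the lists were chosen with earlier results of these data known.

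The genes that EGF-like ligands induce in cumulus cells held the only gene of the pathway lists that was measured on both arrays and 2-fold apart at this scaling. Tnfaip6, which cross-links hyaluronan, had signals of 243 and 71.1 and a log2 ratio of 1.53, or 2.89-fold, with another probe at 1.33. Has2, the hyaluronan synthase, had signals of 109 and 4.41, a difference of at least 4.65-fold. Ptgs2, the inducible cyclooxygenase, had mean signals of 37.6 and 9.67 over 10 spots and was at least 1.58-fold higher. The SD of its log2 ratio over spots, dim antagonist signals included, was 0.80, larger than its log2 bound of 0.66. Ptx3 was well above background on neither array, with signals of 4.34 and 12.5. Of these genes, Tnfaip6 alone has a direction measured on both arrays. Has2 and Ptgs2 passed background with the agonists only, so their bounds could be given in no other direction. The dim signals of Ptx3 leaned the other way but are not reliable measurements. A direction shared by the list was therefore not tested.

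Of the genes known to act before the ligands in the follicle, 3 of 6 were above 0 and none was 2-fold apart. Their median log2 ratio was 0.07, and it was 0.36 with the mean over all probes of a gene. The prostaglandin E2 receptors Ptger4 and Ptger2 had log2 ratios of 0.89 and 0.64, and Crem, a factor of the cyclic AMP response, had 0.27. Creb1 had -0.12, with another probe at 0.16. Fshr, the receptor of follicle-stimulating hormone, had -0.73, and Pgr, the progesterone receptor, had -0.53, with another probe at 1.04, so its probes disagree. Lhcgr, the receptor through which luteinising hormone induces these ligands, had signals of 4.29 and 4.49 and was well above background on neither array.

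**Figure D5:**
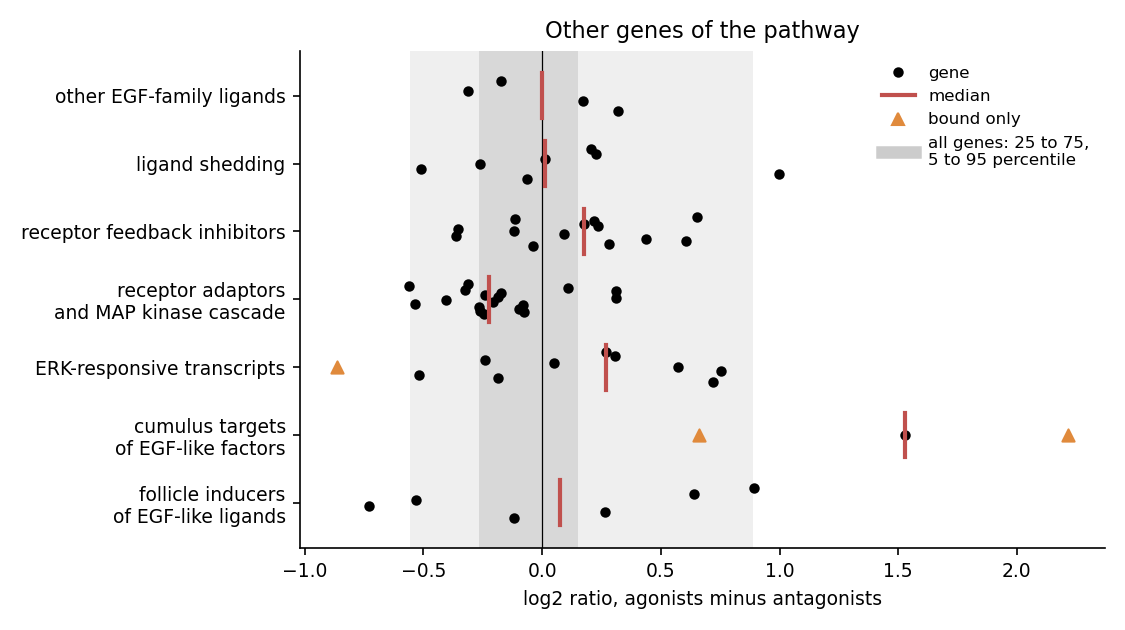
Log2 ratio (agonists minus antagonists) of each gene of 7 lists around the ligands and receptors; dots are genes well above background on both arrays, red bars their medians, triangles bounds of genes well above background on 1 array, and grey bands the 25th to 75th and 5th to 95th percentile of all genes. The adaptors and kinases lie mostly below 0, and the cumulus genes, of which Tnfaip6 alone is a dot, lie to the right.

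Markers of cells that are known to make these ligands and receptors also differed between the arrays. Of 7 surface epithelium genes on the arrays, all were above 0, with ratios between 0.62 and 1.40, and their scaled signals summed to 37.3 on the agonist and 17.5 on the antagonist array (1 being the 75th percentile of an array). The 5 macrophage genes were all above 0, between 0.15 and 1.82, with sums of 11.4 and 9.06. The 4 smooth muscle genes measured on both arrays were all above 0, between 0.60 and 0.99, with sums over the list of 37.8 and 23.2, and Des was at least 2.63-fold higher. Of 5 endothelial genes measured on both arrays 4 were above 0, with a median of 0.88 and the highest value, 2.49, for Vwf, and Tek was at least 4.10-fold higher, although the sums were 30.5 and 31.3. Stroma had 4 of 5 genes above 0, a median of 0.49 and sums of 257 and 210. Schwann cells had a share nearer to that of all genes, with 2 of 5 above 0 and sums of 5.41 and 3.54. Granulosa cells had 2 of 7 genes above 0, values between -1.17 and 0.38 and sums of 166 and 203. The granulosa median was -0.67, below the 5th percentile of all genes (-0.56), and 1 granulosa gene was at least 2-fold lower. Oocyte genes had a median of 0.10, theca genes -0.10 and oviduct genes -0.08. Their part in the values of Ereg, Areg, Nrg1 and Egfr was not tested, and in RNA of whole tissue more cells of a type and more RNA per cell cannot be told apart.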

How the data were processed

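RNA of cultured ovary pieces was labelled with Cy3 and hybridised to SurePrint G3 Mouse GE 8 x 60K arrays, 1 for each treatment. The authors deposited the spot intensity read by Agilent Feature Extraction (version 10.10.1.1 per the file headers), background-subtracted and not scaled between arrays, with flags for outlying, saturated and well-above-background spots. The deposited summary intensities equal the processed signal times 1.99 (agonists) or 2.19 (antagonists).

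Control spots and outlier spots (165 and 159 of 59305) were left out; 0 spots were saturated. Scaling subtracted the log2 of each array's 75th percentile (672 and 569 units), and spots of a probe were averaged. A probe was taken as well above background if more than 50% of its spots were. Of 55674 probes, 27230 were named through RefSeq transcripts listed for GRCm38.p6 and a gene was represented by its brightest probe; the array was designed on mm9. For bounds a dim value was raised to the lowest signal well above background.

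With 1 array per group there was no test and no p-value, and the number of arrays limits the precision. Errors are the software's error of a spot, combined over both arrays, or the SD over spots. The named genes are all members, pathway lists of up to 7 genes in full and, in longer lists, those 2-fold apart or the 2 highest and 2 lowest; marker lists are given by counts and ranges. Members and lists were chosen with earlier results of these data known. Python 3.11.15 (numpy 2.4.6, pandas 2.3.3), R 4.3.3 and limma 3.58.1 (normexp, quantile, loess with span 0.3) were used, and the calculation was tested on simulated data.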

Additional observations from a re-analysis of the deposited data

How the results depend on the processing

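No paired analysis was possible because the arrays are unreplicated and nothing was tested. The median log2 ratio of the EGF-like ligands, 0.27, was 0.51 when no scaling was applied, 0.54 after spike-in scaling and 0.50 when dim probes were kept. It was -0.043 with normexp, whose offset of 50 units is as large as the dim signals, and -0.27 with bright genes alone, which leave only Hbegf. The median of the ERBB receptors, 0.12, was 0.36 when unscaled, 0.39 after spike-in scaling, 0.20 with the percentile taken over probes detected on both arrays, 0.22 with loess as with the authors' summary values, 0.31 with bright genes alone and 0.0046 with the mean over all probes. The number of members at least 2-fold higher, 0, was 1 (Ereg) if dim probes were kept and 1 if they were set to the lowest signal well above background. For all genes the numbers past 2-fold were 612 upwards and 88 downwards. They were 992 and 39 unscaled, 1054 and 35 after spike-in scaling, 323 and 33 with normexp, 1349 and 554 if dim probes were kept, 176 and 19 for bright genes and 104 and 9 at 4-fold. Downwards alone, 58 genes passed in the authors' summary values and 139 with dim probes at the lowest signal.

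Scaling moved the median of all genes, -0.10, to 0.15 when none was applied, 0.0042 with loess, 0.18 with spike-ins and 0.0059 in the authors' values, and small ratios changed sign with it. Unscaled, Erbb2 was at 0.17, the other EGF-family ligands at 0.24 and the adaptors and kinases at 0.018. With spike-ins, these 3 were at 0.20, 0.27 and 0.052, and Hbegf was at 0.0037. Erbb2 and the other EGF-family ligands were at 0.0058 and 0.023 with loess, at 0.031 and 0.10 in the authors' values, and at 0.016 and 0.085 with the percentile over probes detected on both arrays. These ligands were at 0.17 with the mean over probes. The shedding genes were at -0.043 with scaling on the median, Tgfa at -0.11 with normexp, the log2 bound of Btc at -0.0057 with loess and -0.11 with normexp, and the inducers of the ligands at -0.12 if dim probes were kept, against 0.36 with the mean over probes, 0.31 unscaled and 0.35 with spike-ins. Of 104 values of single members, 82 moved by less than their error, 13 moved by more and 9 changed sign. The 82 include values that could not move, so this count overstates how stable the members were. The counted values were unchanged with outlier spots kept, with dim probes kept or set to the lowest signal, and with bright genes alone. So were those of single-spot members with the median over spots and of single-probe members with the mean over probes. The cause of the moves was not tested beyond what each setting removes. Signal over background limits Areg, Ereg, Btc, Erbb3 and Erbb4.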
